A study of Mus musculus with 12 samples.

Results

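Complement is a set of plasma and cell-surface proteins that tags particles for uptake and calls in inflammatory cells. The 9 genes described here code for components of its opening steps and for receptors of its cleavage fragments: C1qa, C1qb, C1qc, C4b, C2, C3, Cfb, C3ar1 and C5ar1. They were taken by name from the deposited gene table, and all 9 were found among its 39210 genes and passed the filter on low counts that left 13960 genes. C4b was chosen by its response, since it was higher in hypoxic males and not in hypoxic females. Its values in the comparisons that involve hypoxia are therefore a description with no test, and the counts of genes that changed are over the other 8.

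The samples were frozen ventricular tissue of C57BL/6 mice, with no allele or transgene named in the labels, profiled by strand-specific mRNA sequencing in 12 libraries. Each of the 4 groups had 3 libraries: normoxic males, hypoxic males, normoxic females and hypoxic females. Normoxic mice spent 4 weeks in air with 20.9% oxygen. For hypoxic mice the oxygen of the chamber went down by 1% a day over 14 days and stayed at 7% for 2 more weeks. The labels give neither the age of the mice nor the ventricle (left or right). They also do not say that each library is its own animal, so the spread behind each p-value may be technical.

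Complement can be started in 3 ways that meet at C3. In the classical way, C1q, a recognition molecule made of A, B and C chains, binds immune complexes or dying cells and its partner proteases cut C4 and C2, which together form an enzyme that cuts C3. In the alternative way, factor B (Cfb), cut by factor D, joins deposited C3b to form a further C3-cutting enzyme and so amplifies the reaction, whereas the lectin way starts from sugar-binding proteins. The small fragments C3a and C5a act on the receptors encoded by C3ar1 and C5ar1, which myeloid cells carry. Plasma C3, C4, C2 and factor B come mostly from the liver and are also made in other tissues, whereas C1q in tissues is made mainly by macrophages.

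The stretch just before the start site of a gene holds part of the signals that set its transcription, and it is shown here for the members that rose in hypoxic males and have an entry in the RefSeq promoter table. That table (GRCm38.p6) held 5 of the 9 members: C3, C1qb, C1qc, C3ar1 and C5ar1. The 250 bases that end at the start site are printed in the direction of transcription, on the minus strand, from chr17:57228137-57228386 for C3, chr6:122856158-122856407 for C3ar1 and chr7:16259339-16259588 for C5ar1. Capitals mark matches to 4 motifs searched on both strands, from 250 bases before to 50 bases after the start: ACGTG (the core bound by hypoxia-inducible factors), TTCNNNGAA (STAT), GAAANNGAA (IRF) and GGNNTTTCC (NF-kB).
C3: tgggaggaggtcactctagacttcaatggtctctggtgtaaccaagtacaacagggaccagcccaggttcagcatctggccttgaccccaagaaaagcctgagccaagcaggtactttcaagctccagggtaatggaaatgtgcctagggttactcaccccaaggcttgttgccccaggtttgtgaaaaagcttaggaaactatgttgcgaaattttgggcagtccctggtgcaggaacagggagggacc
C3ar1: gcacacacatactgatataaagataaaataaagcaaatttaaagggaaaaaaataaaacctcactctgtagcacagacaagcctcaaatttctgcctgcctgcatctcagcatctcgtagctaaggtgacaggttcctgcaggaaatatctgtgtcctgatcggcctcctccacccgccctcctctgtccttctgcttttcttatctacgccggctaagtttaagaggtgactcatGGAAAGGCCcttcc
C5ar1: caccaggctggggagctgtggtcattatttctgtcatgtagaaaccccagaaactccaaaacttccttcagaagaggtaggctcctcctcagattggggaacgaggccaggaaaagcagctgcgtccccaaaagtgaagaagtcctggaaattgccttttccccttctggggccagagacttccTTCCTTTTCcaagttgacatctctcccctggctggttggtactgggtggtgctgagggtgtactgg
The C3ar1 window held 1 match to the NF-kB letters, GGAAAGGCC on the opposite strand, beginning 14 bases before the start. The C5ar1 window held 1 match to the IRF letters, TTCCTTTTC on the opposite strand, beginning 66 bases before the start. No match to any of the 4 motifs lay in the windows of C3, C1qb or C1qc. Among 32851 promoters of the same length, 19.6% held ACGTG, 8.30% TTCNNNGAA, 8.56% GAAANNGAA and 5.82% GGNNTTTCC.

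Library totals ran from 14915830 to 19397851 estimated counts. Markers of ventricular heart muscle, 6 of 6 tested, summed to between 35975 and 53276 CPM (counts scaled to a common library size with TMM factors) in every library. Markers of hepatocytes, the main source of plasma complement, summed to at most 2.90 CPM. Hypoxic male libraries 2 and 3 stood apart, with summed adipocyte markers of 5.43 and 4.39 CPM against at most 1.48 in each of the other 10 libraries. The adipocyte gene Plin1 was listed at 0 in all 12. Summed atrial muscle markers were 1714 and 962 CPM in hypoxic male libraries 2 and 3 and 494 in hypoxic male library 1. They were 480 and 1060 in hypoxic female libraries 2 and 3, and between 71.7 and 253 in the other 7. Nppa made up most of each sum, including 1046 CPM in hypoxic female library 3. Myl7 was 57.9 and 54.1 CPM in hypoxic male libraries 2 and 3 and at most 0.781 CPM elsewhere. Myl4 and Sln were likewise far higher in those hypoxic male libraries. Dkk3 was also highest there, with 12.1 CPM in hypoxic female library 2, and Bmp10 was at most 0.143 CPM in any library. Results from hypoxic males are therefore also given without both libraries, with the remaining one assumed to vary like the other groups.

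Scaled by transcript length, as TPM (transcript share after correction for length), the C1q chains were the most abundant members in normoxic males. C1qb stood at 31.5 ± 4.1 TPM (SD, n = 3), C1qa at 30.7 ± 4.3 and C1qc at 24.0 ± 5.1, and these neighbours lay within their spread. C3 followed at 13.4 ± 3.1 TPM and C4b at 3.45 ± 0.83, each apart from its neighbours. C3ar1 at 0.689 ± 0.205 TPM, C5ar1 at 0.600 ± 0.194, C2 at 0.486 ± 0.164 and Cfb at 0.373 ± 0.138 formed a low group whose spreads overlapped. In hypoxic males the order of levels was C1qb (54.2 ± 3.7 TPM), C1qa (53.0 ± 5.2), C3 (43.9 ± 13.5), C1qc (41.8 ± 5.1), C4b (20.9 ± 8.6), Cfb (2.37 ± 1.34), C5ar1 (1.99 ± 0.23), C3ar1 (1.53 ± 0.15) and C2 (0.677 ± 0.244). C3 and Cfb thus stood higher in the order than in normoxia, with C3 within the spread of the C1q chains and Cfb within that of C5ar1 and C3ar1. These TPM values order genes within a group and do not measure the change with hypoxia, which was tested on TMM-scaled counts. C1qa, with an effective length of 790 bases in every library, went from 30.7 to 53.0 TPM in males but from 45.2 to 59.0 CPM. Normoxic females kept C1qb, C1qa and C1qc at the top (37.4 ± 9.4, 33.6 ± 9.9 and 26.1 ± 7.3 TPM), then C3 at 15.3 ± 3.7 and C4b at 4.64 ± 0.93, with the other 4 at or below 0.835 and within each other's spread. Hypoxic females had the C1q chains at 35.4 to 44.8 TPM, C3 at 17.9 ± 5.4, C4b at 4.48 ± 0.90, C5ar1 at 1.54 ± 0.53 and C3ar1 at 1.01 ± 0.28, with Cfb at 0.684 ± 0.389 and C2 at 0.545 ± 0.113. C4b stayed below C3 in each of the 12 libraries, those of hypoxic males included.

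C4b codes for complement component 4, the protein that C1 cuts and that binds covalently to targets. Its level was 12.95, 14.03 and 16.58 CPM in normoxic male libraries 1 to 3, and 39.46, 89.74 and 71.19 CPM in hypoxic male libraries 1 to 3. Normoxic female libraries gave 15.20, 18.83 and 19.42 CPM, and hypoxic female libraries 14.44, 17.53 and 16.40 CPM. The 3 hypoxic male libraries were all above the other 9, which lay within a narrow band, and libraries 2 and 3 of that group were higher than library 1. The log2 difference between hypoxia and normoxia was 2.20 ± 0.25 (SE) in males, a 4.61-fold higher level, and -0.14 ± 0.24 in females. The female difference minus the male one was -2.35 ± 0.35. All these differences are what the gene was chosen on. Without hypoxic male libraries 2 and 3 the male difference was 1.44 on the log2 scale.

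Females against males in normoxia was not a comparison the choice was made on, but it holds normoxic libraries that the choice used. Its test of C4b is therefore not independent of the choice. C4b differed there by 0.30 ± 0.25 on the log2 scale (95% interval -0.24 to 0.84, adjusted p = 0.803). C4b has a near-identical neighbouring copy, C4a, and reads shared by the copies are split by estimation. C4a took from 0% to 5.13% of the counts of both copies in a library, and with the copies summed the log2 ratio of group means was 2.20 in males and -0.13 in females. The effective transcript length of C4b ranged from 1963 to 2764 bases over the 12 libraries with no order by group, and with length offsets in the fit the male difference was 2.15.

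**Figure D1:**
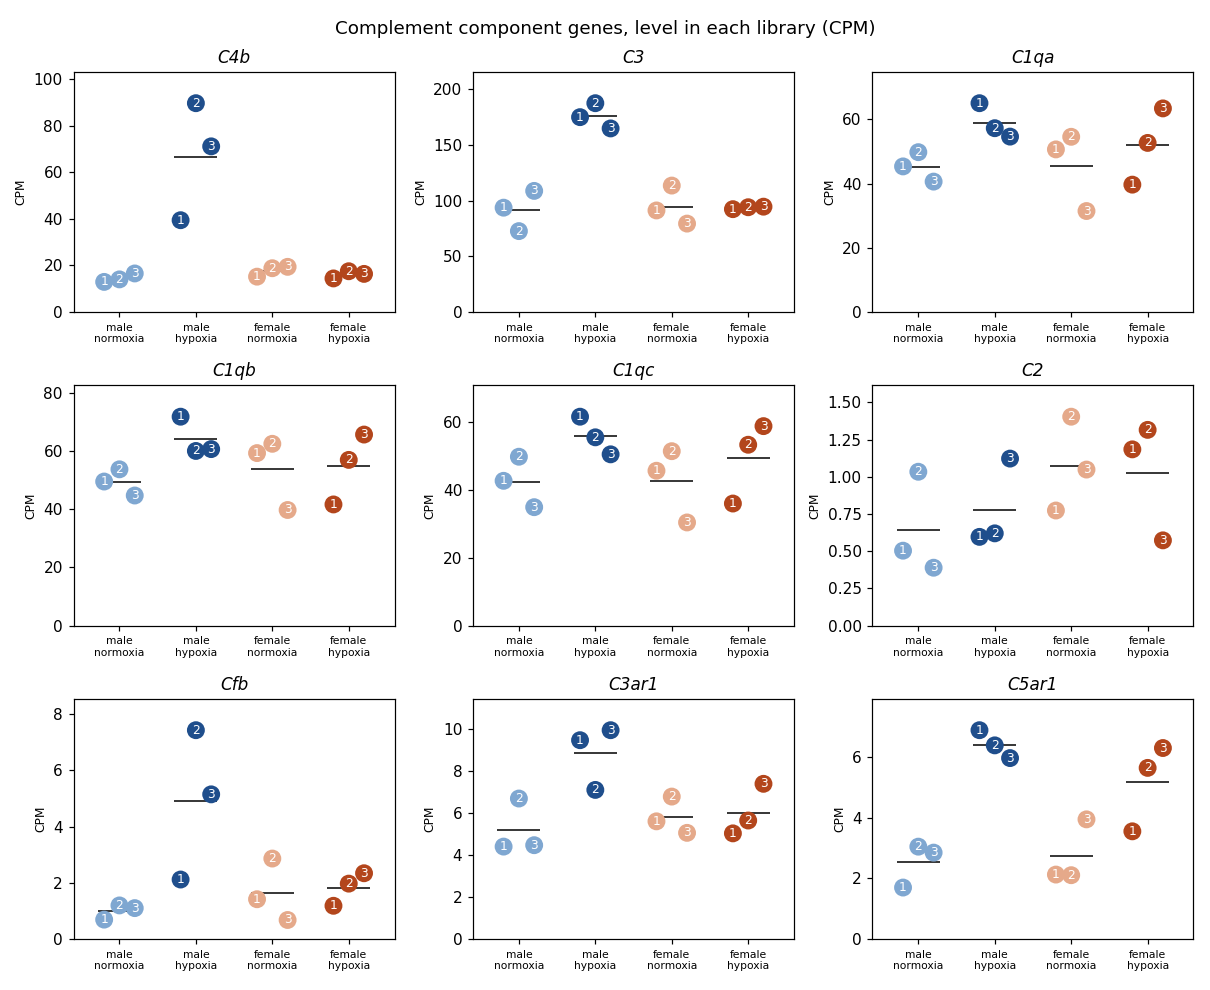
Level of each of the 9 complement genes in CPM (vertical axis, from 0) in the 3 libraries of each group. Points are libraries, numbered as in the labels, and bars are group means. The 3 hypoxic male libraries lie above the 3 normoxic male libraries for every gene but C2, and for no gene do the 3 hypoxic female libraries lie above the 3 normoxic female ones.

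Of the 8 members other than C4b, 4 rose in hypoxic males (C3, Cfb, C3ar1 and C5ar1), 0 fell and 4 did not pass the test (C1qa, C1qb, C1qc and C2). Among all genes tested 8.47% rose in that comparison. The median log2 difference of the 8 was 0.58, against 0.01 over all genes tested. For 7 of the 8, each hypoxic male library was above each normoxic male library, which held for 21.5% of all genes tested. Without hypoxic male libraries 2 and 3, which leaves 1 library in the group, the smallest adjusted p of the 8 was 0.131, for C3. The count was 1 without normoxic male library 1 and 2 without normoxic male library 3, hypoxic male library 2 or hypoxic male library 3.

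C3, the central component that all 3 ways cut, stood at 93.6, 72.6 and 108.6 CPM in normoxic males and at 174.7, 187.2 and 164.6 CPM in hypoxic males. In females it was 91.1, 113.4 and 79.3 CPM in normoxia and 92.2, 94.0 and 94.5 CPM in hypoxia. The hypoxic male libraries were all above the other 9, and the hypoxic female ones lay inside the normoxic range. C3 rose by 0.94 ± 0.15 on the log2 scale in males, a 1.92-fold higher level (adjusted p = 0.00448), with a 95% interval from 0.60 to 1.28. In females the difference was -0.02 ± 0.15, with an interval from -0.35 to 0.32 (adjusted p = 0.966).

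The male rise of C3 passed in each fit that left out 1 library. Without hypoxic male libraries 2 and 3 it was 0.93 on the log2 scale (adjusted p = 0.131). The deposited effective length of C3 was 3379 to 3847 bases in normoxic males and 2550 to 3288 in hypoxic males. Length enters TPM and not CPM, but TPM and CPM also gave unlike male ratios for C1qa, whose length was fixed. With length offsets the male difference was 1.27 (adjusted p = 0.0116).

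Fibroblasts make C3 and C4 in several tissues. Of 8 fibroblast markers, all tested and none at 0, 6 rose in hypoxic males and 1 in hypoxic females. Their summed level was 715 to 750 CPM in normoxic males, 977 to 1355 in hypoxic males, 662 to 852 in normoxic females and 689 to 1101 in hypoxic females. The part of these cells in the C3 and C4b values was not tested. In bulk tissue, more cells of a type and more RNA per cell cannot be told apart.

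The 3 C1q chains were high and low in the same libraries. C1qa was 45.3, 49.8 and 40.6 CPM in normoxic males and 65.0, 57.2 and 54.6 CPM in hypoxic males. In normoxic females it was 50.6, 54.6 and 31.4 CPM, and in hypoxic females 39.7, 52.7 and 63.4 CPM. The male groups did not overlap, whereas the female groups did, and normoxic female library 3 was the lowest of all 12. C1qb ran from 44.7 to 53.7 CPM in normoxic males and from 60.0 to 71.8 in hypoxic males, and C1qc from 35.0 to 49.9 and from 50.6 to 61.7.

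None of the C1q chains passed the test in either sex. In males the log2 difference was 0.38 ± 0.21 for C1qa (adjusted p = 0.223), 0.38 ± 0.19 for C1qb (adjusted p = 0.190) and 0.39 ± 0.22 for C1qc (adjusted p = 0.233). The 95% intervals reached from -0.07 to 0.83 for C1qa, from -0.04 to 0.79 for C1qb and from -0.08 to 0.87 for C1qc. In females the differences were 0.19 ± 0.21, 0.02 ± 0.19 and 0.22 ± 0.22. In a fit of the male libraries alone C1qa and C1qb passed (adjusted p = 0.0388 and 0.0397) and C1qc did not.

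The chains are assembled in equal numbers, and their mRNAs kept a nearly fixed ratio. Of the summed C1q TPM, C1qa held 33.4% to 36.4% over the 12 libraries, C1qb 35.4% to 39.7% and C1qc 26.0% to 29.4%. In the RefSeq gene order the genes follow each other as C1qa, C1qc and C1qb with no protein-coding gene between them.

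Macrophage markers can be set beside C1q library by library. The chains summed to 137 ± 17 CPM in normoxic and 179 ± 17 in hypoxic males, and to 142 ± 36 in normoxic and 156 ± 36 in hypoxic females (SD, n = 3). The 12 macrophage markers, all tested and none at 0, summed to 131 ± 22, 205 ± 22, 157 ± 28 and 174 ± 28 CPM in the same groups. The ratio of hypoxia to normoxia was thus 1.31 for C1q and 1.57 for the markers in males, and 1.10 for both in females. C1q per marker sum was 0.991 to 1.14 in normoxic males, 0.862 to 0.893 in hypoxic males, 0.752 to 1.05 in normoxic females and 0.827 to 1.00 in hypoxic females. Relative to the summed markers C1q was thus not higher in hypoxic males, and every hypoxic male library lay below every normoxic male one. This holds for the sum and not for each marker. In males Csf1r, Cx3cr1 and Timd4 differed by less than the C1q chains on the log2 scale, and the other markers by more.

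Of the 12 markers, 3 rose in males: Cd68, a lysosomal protein, by 1.33 (adjusted p = 0.0132), Mrc1, the mannose receptor, by 0.97 (adjusted p = 0.0115), and Mertk, a receptor for dying cells, by 0.74 (adjusted p = 0.00647), all on the log2 scale. The other 9 did not pass, and they ran in both directions: Csf1r, the receptor for the macrophage growth factor, differed by 0.16 (adjusted p = 0.539), Cx3cr1 by -0.61 (adjusted p = 0.460) and Timd4 by -0.81 (adjusted p = 0.246). In females the smallest adjusted p of the 12 was 0.180, for Timd4 at -1.03. The part of macrophage number in the C1q values was not tested.

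**Figure D2:**
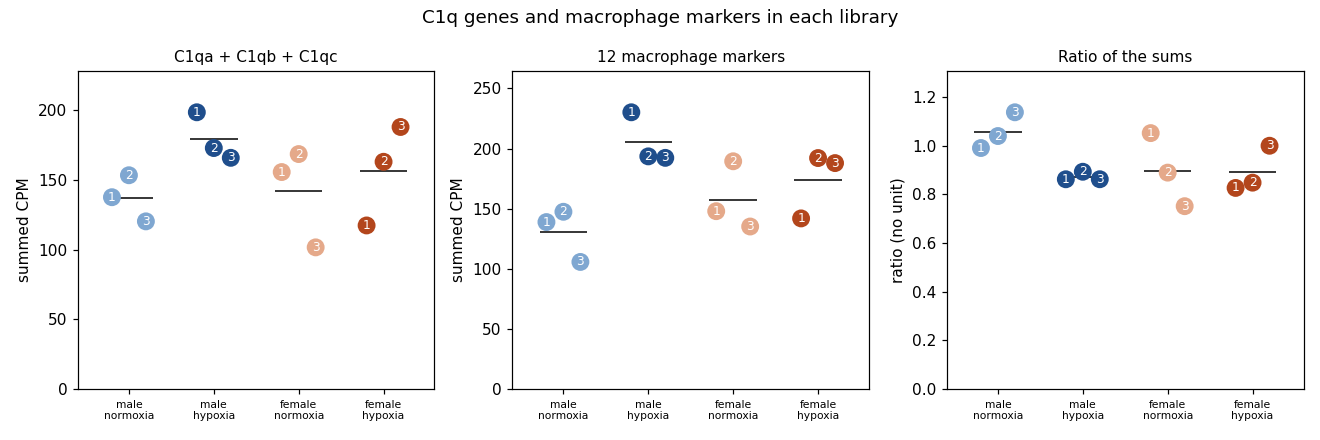
Summed CPM of C1qa, C1qb and C1qc (left), summed CPM of the 12 macrophage markers (middle) and the ratio of both sums (right, no unit) in the 3 libraries of each group, with bars at group means. In males both sums are higher in hypoxia (137 to 179 and 131 to 205 CPM) while the ratio is lower.

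C2 and Cfb code for the protease parts of the classical and the alternative C3-cutting enzymes and lie next to each other in the RefSeq gene order, 5 to 6 protein-coding genes from C4b. C2 had few reads, with estimated counts from 6.05 to 24.0 per library and levels from 0.389 to 1.40 CPM. Its groups overlapped in both sexes. The log2 difference was 0.27 ± 0.49 in males, with a 95% interval from -0.81 to 1.34 (adjusted p = 0.747), and -0.08 ± 0.47 in females, with an interval from -1.11 to 0.96 (adjusted p = 0.943). With these counts the intervals of C2 hold a rise as well as a fall. Its effective length ranged from 574 to 2391 bases between libraries, so the transcripts assigned to it also varied.

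Cfb stood at 0.692, 1.20 and 1.10 CPM in normoxic males and at 2.12, 7.43 and 5.15 CPM in hypoxic males. In females it was 1.42, 2.87 and 0.678 CPM in normoxia and 1.18, 1.97 and 2.34 CPM in hypoxia. Hypoxic male libraries 2 and 3 were far above library 1 of their group, which lay within the female range. Cfb rose by 2.29 ± 0.56 on the log2 scale in males, a 4.90-fold higher level (adjusted p = 0.0198). In females the difference was 0.15 ± 0.54, with a 95% interval from -1.04 to 1.33 (adjusted p = 0.897).

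The male rise of Cfb depended on single libraries. It passed in 1 of the 6 fits that left out a male library, the one without hypoxic male library 1 (2.65, adjusted p = 0.0107), and adjusted p lay from 0.0517 to 0.0811 in the other 5. Without hypoxic male libraries 2 and 3 the difference was 1.08 on the log2 scale (adjusted p = 0.508), and these are the libraries with the high adipocyte and atrial markers. Adipocytes make factor B and factor D, and of 6 adipocyte markers 1 (Adipoq) had enough reads to be tested. Their sums were 0.218 to 0.712 CPM in normoxic males, 0.397 to 5.43 in hypoxic males, 0.526 to 1.48 in normoxic females and 0.156 to 0.438 in hypoxic females. The part of fat tissue in the Cfb values was not tested.

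The receptor genes were low but measurable. C3ar1, the receptor of C3a, stood at 4.40, 6.69 and 4.47 CPM in normoxic males, 9.47, 7.10 and 9.94 CPM in hypoxic males, 5.60, 6.78 and 5.06 CPM in normoxic females and 5.03, 5.64 and 7.39 CPM in hypoxic females. The male groups did not overlap, by a margin of less than 1 CPM, and the female groups did. It rose by 0.76 ± 0.22 on the log2 scale in males, a 1.70-fold higher level (adjusted p = 0.0409). In females the difference was 0.05 ± 0.22, with a 95% interval from -0.44 to 0.54 (adjusted p = 0.916). The call was close to the threshold: it was lost with no filter on low counts (adjusted p = 0.0631), with length offsets (adjusted p = 0.0690) and without normoxic male library 1, normoxic male library 3, hypoxic male library 1 or hypoxic male library 3 (adjusted p from 0.0871 to 0.139).

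C5ar1, the receptor of C5a, was the member that differed most between hypoxic and normoxic females. Its level was 1.70, 3.05 and 2.85 CPM in normoxic males and 6.89, 6.39 and 5.97 CPM in hypoxic males. Normoxic females gave 2.13, 2.11 and 3.95 CPM and hypoxic females 3.55, 5.64 and 6.30 CPM. In females only hypoxic library 1 and normoxic library 3 overlapped. C5ar1 rose by 1.34 ± 0.31 on the log2 scale in males, a 2.52-fold higher level (adjusted p = 0.0173). In females the difference was 0.92 ± 0.31, with a 95% interval from 0.24 to 1.61 (adjusted p = 0.0983). It passed in females by DESeq2 (adjusted p = 0.0445), and by edgeR without normoxic female library 3 (adjusted p = 0.0360) or without hypoxic female library 1 (adjusted p = 0.0353). In males it was lost without normoxic male library 1 (adjusted p = 0.0683) or hypoxic male library 2 (adjusted p = 0.0510).

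Both receptors are carried by macrophages, whose markers are given above, and by neutrophils. Of 6 neutrophil markers, 4 were tested and 1, S100a8, rose in males. Their summed level was 4.95 to 9.59 CPM in normoxic males, 10.1 to 22.6 in hypoxic males, 4.51 to 9.77 in normoxic females and 3.79 to 6.30 in hypoxic females. None was at 0 in every library, though Ly6g and Mpo had at most 3 counts in one. The neutrophil sum was thus higher in hypoxic males and not in hypoxic females, where C5ar1 was also higher than in normoxia on average. The male part holds for the sum and not for each marker. For S100a8 and S100a9 every hypoxic male library lay above every normoxic male one. For Csf3r and Cxcr2 the male groups overlapped. Their log2 differences in males were 0.41 (adjusted p = 0.466) and 0.24 (adjusted p = 0.692). The part of these cells in the receptor values was not tested.

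**Figure D3:**
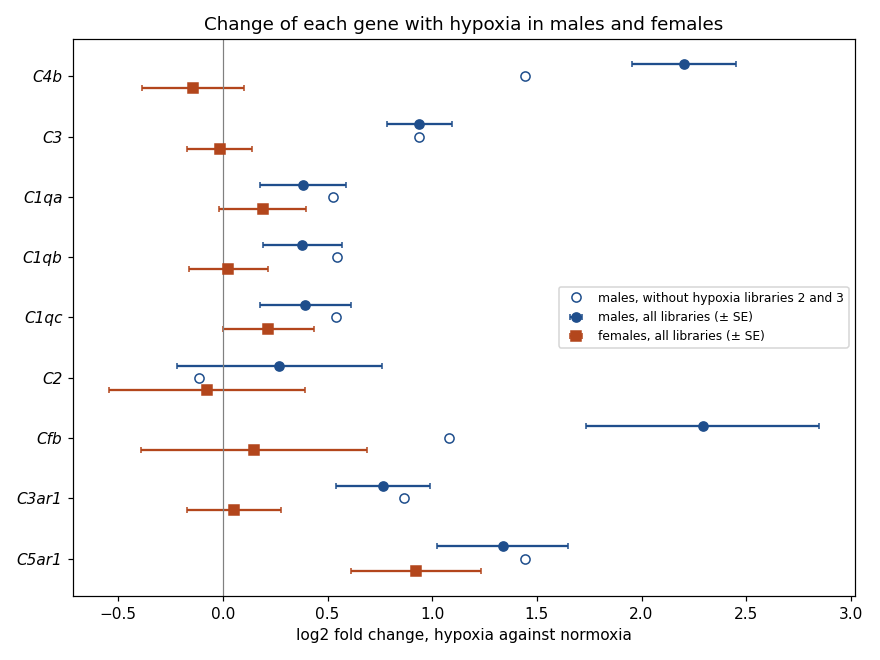
Log2 difference between hypoxia and normoxia (horizontal axis) for each of the 9 genes in males (circles) and females (squares), with bars of ± 1 SE from all 12 libraries. Open circles give the male difference without hypoxic male libraries 2 and 3, where C4b moves from 2.20 to 1.44 and Cfb from 2.29 to 1.08 while C3 stays near 0.94.

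In hypoxic females 0 of the 8 members passed by edgeR's test, against 3.97% of all genes tested that rose. At an unadjusted p under 0.05 there was 1, C5ar1, where 3443 of the 13960 genes tested passed that mark. C5ar1 is also the 1 member that DESeq2 called. No member had every hypoxic female library above every normoxic female library, a pattern that 13.2% of all genes tested showed. The median log2 difference of the 8 was 0.10, against -0.02 over all genes tested.

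With the sexes averaged, 3 of the 8 members rose, against 15.0% of all genes tested. They were C3 by 0.46 ± 0.11 on the log2 scale (adjusted p = 0.00991), Cfb by 1.22 ± 0.39 (adjusted p = 0.0356) and C5ar1 by 1.13 ± 0.22 (adjusted p = 0.00418). C3ar1 differed by 0.41 ± 0.16 (adjusted p = 0.0760). C5ar1 passed in every alternative fit of this comparison, 20 in all, including the one without hypoxic male libraries 2 and 3 (1.18, adjusted p = 0.0364), where it was the only member that passed. Cfb passed in 9 of the 20 and C3 in 18 of the 20.

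The difference between the sexes in the response was tested by the interaction, the female log2 difference minus the male one. It was below 0 for all 8 members, and 0 of them passed by edgeR's test. Among all genes 1 passed, which is 0.00716%. The values were -0.96 ± 0.22 for C3 (adjusted p = 0.467), -2.15 ± 0.77 for Cfb (adjusted p = 0.666), -0.71 ± 0.32 for C3ar1 (adjusted p = 0.730) and -0.41 ± 0.44 for C5ar1 (adjusted p = 0.885). C3, Cfb and C3ar1 had an unadjusted p under 0.05, as did 948 of the 13960 genes tested. DESeq2 called 1 member, C3, at -0.94 (adjusted p = 0.0201). For the C1q chains the interaction lay between -0.35 and -0.18.

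In normoxia 0 of the 9 members differed between the sexes by edgeR's test, and 0.0716% of all genes tested did. C4b is among the 9, though its choice used these normoxic libraries. None of the 9 had an unadjusted p under 0.05 either, where 1018 of the 13960 genes tested did, and DESeq2 called 0. The female level was nominally higher for all 9, from 0.00 for C1qc to 0.73 for C2 and Cfb on the log2 scale. Among all genes tested it was higher for 7124 of 13960. In hypoxia 0 of the 8 members differed by edgeR's test, where 0.150% of all genes tested did. C3 came nearest, at -0.91 ± 0.15 in females against males (adjusted p = 0.0585), with no overlap between the 3 libraries of each sex. It passed by DESeq2, with no filter on low counts and in a fit of the hypoxic libraries alone. An unadjusted p under 0.05 was found for 3 members and for 1345 of the 13960 genes tested.

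Of 43 other complement genes listed by role, 25 had enough reads to be tested, and Mbl1, Mbl2, C8a, C8b and C9, which code for lectins and for parts of the membrane attack complex, were listed at 0 in every library. In males 6 of the 25 rose and 1 fell, in females 1 rose and 0 fell, and with the sexes averaged 6 rose and 1 fell. Of all genes tested 8.47% rose and 7.10% fell in males, 3.97% rose and 2.02% fell in females, and 15.0% rose and 12.9% fell with the sexes averaged, so the female count is near the background. For the interaction 0 of the 25 passed by edgeR's test and DESeq2 called 1. At an unadjusted p under 0.05 there were 7, where 948 of the 13960 genes tested passed that mark. The median log2 difference of the 25 was 0.55 in males and 0.17 in females.

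The regulators that rose include 2 soluble inhibitors. Serping1, which inhibits the C1 proteases, stood at 86.7, 82.5 and 86.7 CPM in normoxic males and at 148, 174 and 193 CPM in hypoxic males. It rose by 1.01 ± 0.12 on the log2 scale (adjusted p = 0.00126). In females it was 94.96, 92.87 and 100.26 CPM in normoxia and 110, 141 and 142 CPM in hypoxia, groups that did not overlap, with a difference of 0.44 ± 0.12 (adjusted p = 0.0523). Clu, clusterin, which blocks the terminal complex, stood at 532, 493 and 565 CPM in normoxic males and 1769, 1583 and 1503 CPM in hypoxic males, and rose by 1.61 ± 0.17 (adjusted p = 0.000721). In hypoxia Clu was lower in females than in males by -1.07 ± 0.16 (adjusted p = 0.0340). C7, a part of the membrane attack complex, was lower there by -1.94 ± 0.31 (adjusted p = 0.0407). In normoxia Clu differed by 0.10 ± 0.16 (adjusted p = 0.907). C7 was nominally lower in females in normoxia too, by -1.08 ± 0.31 (adjusted p = 0.642), with groups that did not overlap.

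Cd59b, a membrane inhibitor of the terminal complex, was the gene that fell in males. It stood at 5.53, 5.11 and 4.73 CPM in normoxic males and 3.05, 1.86 and 2.09 CPM in hypoxic males, a difference of -1.14 ± 0.24 (adjusted p = 0.0121). No listed gene fell in males without hypoxic male library 2, without library 3 or without both, so this call was lost there. In females the difference was -0.75 ± 0.24 (adjusted p = 0.0833), with groups that did not overlap. Cd59a, the other Cd59 gene on the list, was more abundant and did not pass. In normoxic males Cd59a stood at 42.8 ± 1.4 TPM and Cd59b at 11.7 ± 1.5 TPM (SD, n = 3). The mean of Cd59a was 90.7 CPM in normoxic and 84.3 CPM in hypoxic males, a difference of -0.11 ± 0.10 (adjusted p = 0.508).

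Complement receptors of phagocytes were the other group with several calls, 3 of 5 tested. Vsig4, a receptor for C3 fragments on resident macrophages, stood at 0.629, 1.31 and 0.648 CPM in normoxic males and 6.95, 3.96 and 4.84 CPM in hypoxic males, and rose by 2.58 ± 0.40 (adjusted p = 0.00378). The integrin chains of complement receptor 3 both rose, Itgam by 1.03 ± 0.30 (adjusted p = 0.0406) and Itgb2 by 1.09 ± 0.13 (adjusted p = 0.00151). Itgb2 was the 1 listed gene that also rose in females, by 0.53 ± 0.13 (adjusted p = 0.0414). This call was lost in 7 fits, in each of which 0 listed genes passed in females: with no filter, with length offsets, with only the female libraries, and without normoxic library 1 or 2 or hypoxic library 2 or 3. In females Vsig4 differed by 1.27 ± 0.40 (adjusted p = 0.0802).

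In the alternative way, Cfp, properdin, which stabilises the C3-cutting enzyme, rose in males by 0.92 ± 0.15 (adjusted p = 0.00438), from 7.36, 7.67 and 7.45 CPM to 16.8, 12.9 and 12.9 CPM. Cfd, factor D, which fat tissue makes in quantity, did not pass. It was 0.728 CPM in hypoxic male library 1, 16.7 in library 2 and 12.3 in library 3, and at most 1.04 in each of the other 9 libraries. These 2 libraries are again those with the high adipocyte markers. The 3 tested genes of the classical way (C1ra, C1s1 and C4a) had male differences from 0.12 to 1.95 and the 4 of the lectin way from -0.48 to 1.05, all with an adjusted p over the threshold of 0.05. C4a differed in males by 1.95 ± 0.83 (adjusted p = 0.129).

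**Figure D4:**
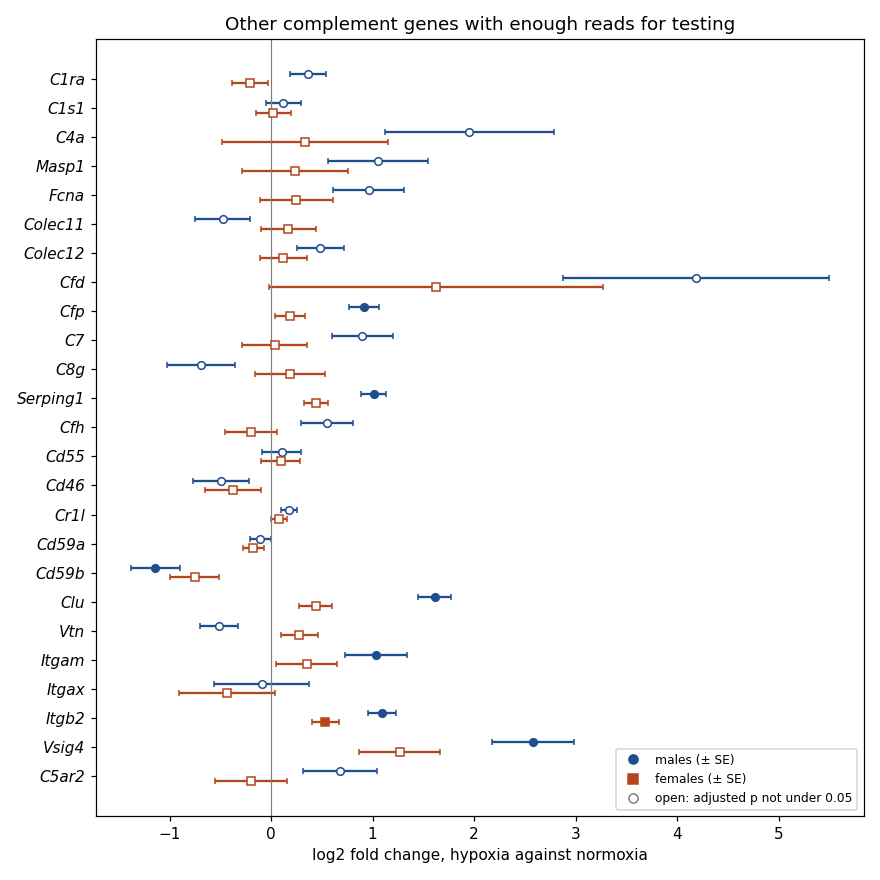
Log2 difference between hypoxia and normoxia (horizontal axis) for the 25 other complement genes with enough reads, in males (circles) and females (squares), with bars of ± 1 SE. Filled symbols passed at an adjusted p under 0.05: 6 genes to the right and 1 to the left in males, and 1 gene, Itgb2, in females.

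The genes most like C4b were sought by the root mean square difference in log2 CPM, each gene centred on its own mean, over the 12 libraries and the 11462 genes whose mean log2 CPM reached 1. The nearest was Prg4, the lubricating glycoprotein of joints and serosal surfaces, at 0.28, followed by Ccn3 at 0.36, Scara3 at 0.39, Fmo2 at 0.42, Gda, Clu and Ccl12 at 0.47 and Bambi at 0.48, against a median of 0.93. Prg4 stood at 7.36, 11.5 and 10.5 CPM in normoxic males, 22.1, 73.6 and 66.1 CPM in hypoxic males and 8.23 to 16.9 CPM in the 6 female libraries, so it shared both the high male hypoxic group and the gap between library 1 and the other two. Clu was the only other complement gene among the 8. C3 lay at 0.55 from C4b, C5ar1 at 0.70, C3ar1 at 0.70 and the C1q chains at 0.83. Cfb, C2 and C4a did not reach a mean log2 CPM of 1 and were not compared.

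The mean pattern of the C1q chains was shallow and had many near genes: 736 genes, the chains included, lay within 0.25 of it, against a median of 0.38. The chains themselves lay at 0.03 to 0.05. The nearest others were Wdfy2 at 0.14 and Sdc2, Casp8ap2, Pid1, Poc1b, Eipr1, Rnf135 and Ankrd54 at 0.15. Csf1r lay at 0.19, Mrc1 at 0.23 and C3ar1 at 0.24. These distances are over libraries that share depth and scaling, and they are a description.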

How the data were processed

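Per the labels' protocols, total RNA from frozen ventricular tissue was made into directional mRNA libraries. FastQC and Salmon are named as tools and GRCm39 as the build, per the submitters' processing notes, while versions and settings are not given in the sources used here. The table deposited by the authors holds, per the file headers, an estimated count, a TPM value and an average effective transcript length for each gene and library. It has 39210 genes, of which 99.31% got a symbol, and 0 columns belonged to no sample. Deposited TPM values, which sum to between 889905 and 926060 per library, were used to compare levels between genes.

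Estimated counts were rounded and filtered with filterByExpr on the 4 groups (13960 genes), scaled with TMM and fitted as group means over all 12 libraries with edgeR 4.0.16 (quasi-likelihood test, two-sided, 8 residual degrees of freedom) in R 4.3.3. Hypoxia was set against normoxia in each sex and as a mean of both, with the interaction, and the sexes were compared in normoxia and in hypoxia. Adjusted p-values are Benjamini-Hochberg values over all genes tested, with a threshold of 0.05, from this test unless DESeq2 1.42.0 is named. Each standard error is the log2 fold change over the root of the F statistic, and intervals cover 95%. The fit was tested on simulated data.

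The members and the lists of other complement genes and markers were chosen with earlier results of these data known. Named from the list were the genes past the threshold in a hypoxia contrast, with C4a and Cfd, and for likeness the 8 nearest genes. C7 and Cd59a were named after their values were seen. Alternatives were DESeq2, RLE factors, no filter, length offsets, only the compared libraries, a replicate block, no mitochondrially encoded and haemoglobin genes, and libraries left out. Leaving out normoxic female library 3 with both hypoxic male libraries, and summing C4a and C4b, were added after seeing the data.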

Additional observations from a re-analysis of the deposited data

How the results depend on the processing

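With 3 libraries a group the calls near the threshold depend on single libraries, and C2, at 6.05 to 24.0 counts per library, is limited by depth. Leaving out 1 library gave 1 to 3 members past the threshold in males (main 4, fewest without normoxic library 1), 0 to 1 in females and 0 to 4 of the other complement genes in females (main 1, most without hypoxic female library 1). Without both hypoxic male libraries 2 and 3 the male counts were 0 members and 4 other genes, and the averaged count of members was 1. With normoxic female library 3 also left out, 0 members passed in males and 1 with the sexes averaged. Only the compared libraries gave 11 other genes in males, 0 other genes in females and 1 member for females against males in hypoxia. DESeq2 gave 1 member and 3 other genes in females, 1 member and 1 other gene for the interaction, and 1 member for females against males in hypoxia. With no filter the values were 0 other genes in females and 1 member for females against males in hypoxia, and with length offsets 0 other genes in females. The cause of these shifts was not tested, beyond the fewer libraries or the changed set of genes.

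Direction turned only for differences that did not pass. Leaving out 1 library gave log2 ranges in females of -0.13 to 0.13 for C3, -0.0200 to 0.36 for C1qa, -0.15 to 0.20 for C1qb, -0.30 to 0.21 for C2, -0.23 to 0.81 for Cfb and -0.12 to 0.18 for C3ar1. The ranges were -0.0894 to 0.80 for C2 in males, -0.0827 to 0.36 for C2 averaged, -0.88 to 0.0135 for its interaction and -0.37 to 0.0128 for the interaction of C1qc. Without hypoxic male libraries 2 and 3, C2 stood at -0.12 in males, -0.10 averaged and 0.0403 for the interaction, and with normoxic female library 3 also out at -0.12, -0.11 and 0.0208.

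Same-numbered libraries of different groups did not deviate together: of 18 pairs 1 had a correlation of deviations over 0.1, and the range was -0.05 to 0.19. The labels do not say what the numbers mark. With few libraries a group these correlations cannot show whether a number marks a shared litter, batch or day, so no pairing was assumed. With the replicate number as a block the male count of members was 3, C3ar1 falling out at 0.78 (adjusted p = 0.0542), and the other counts of members were as without it.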
